A study of Mus musculus with 10 samples.

Results

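Each mouse chromosome has its centromere at one end, and the first 5 Mb of sequence beside it were examined here on 14 autosomes. The members were the 10 kb windows that start after the first 3 Mb and no later than 8000000 on chromosomes 2, 5, 6, 7, 9, 10 and 12 to 19, in GRCm38 (mm10) coordinates. They numbered 7000 of the 272566 windows of the genome, or 500 per chromosome, and were set beside the 162932 other windows of the same chromosomes. The rule uses position alone and no measured value, although it was set with earlier results of these data known.

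The windows come from low-coverage whole-genome DNA sequencing of male C57/Bl6 mouse embryonic stem cells (mESCs) in 2i/LIF, a medium of kinase inhibitors and a cytokine that holds the cells in naive pluripotency. Derivation gave 2 independent lines by the study's own method, and each line was split at the starting point, passage p0, so that replicate numbers stand for lines. The cultures were then kept to p10 and p20 in Mulas2019 conditions, in which cells are grown on gelatin at lower density and passaged every other day, or in Keniry2022 conditions, with daily passage, a higher density and no attachment. Equal passage numbers therefore stand for unequal times in culture, and p10 Mulas2019 and p20 Keniry2022 are the groups matched for days. Each of the 5 groups (p0, p10 Mulas2019, p20 Mulas2019, p10 Keniry2022 and p20 Keniry2022) held 2 libraries, and all comparisons with p0 use the same 2 p0 libraries.

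Centromeres of the mouse are built on tandem repeats. The minor satellite carries the kinetochore and contains the CENP-B box, the site bound by the centromere protein CENP-B, while the longer arrays of AT-rich major satellite form the pericentromeric heterochromatin that gathers in chromocenters. The reference genome replaces most of these arrays by a placeholder gap at the start of each chromosome, and its first known bases therefore lie at the border between the satellite arrays and the gene-bearing arm. Sequence near such borders is rich in recent duplications, and a short read from a duplicated stretch cannot be placed at 1 position.

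Depth was 27270648 to 35354358 reads per library, with a median of 113 to 145 reads per centromere-proximal window and a counting error of 8.30% to 9.41% of that number. Reads on chromosome Y, which set the lines apart, made up 0.000356% to 0.00145% of each library in replicate 1 and 0.0377% to 0.0594% in replicate 2 of the other 4 groups. The library labelled p20 Keniry2022 replicate 1 had 0.0441% and the library labelled p20 Keniry2022 replicate 2 had 0.000673%, against their numbers. These libraries are named by label throughout, and the counts of 1 Mb bins that rest on them are given also with the pairing crossed and without each of them.

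The sequences that the results turn on are shown first, all read from the forward strand of GRCm38 (mm10). The tandem repeat at the start of chromosome 9 drew more reads than nearly all other centromere-proximal sequence, and a unit of 234 bases is shown from chr9:3027538-3027771 (unit A), from the neighbouring chr9:3027772-3028005 (unit B) and from chr9:3009702-3009935 (unit C), with capitals at the bases that differ from unit A.
array unit A: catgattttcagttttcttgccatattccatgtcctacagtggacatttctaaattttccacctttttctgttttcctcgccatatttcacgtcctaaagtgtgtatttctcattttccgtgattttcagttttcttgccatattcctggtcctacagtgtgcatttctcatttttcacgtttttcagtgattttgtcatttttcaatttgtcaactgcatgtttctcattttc
array unit B: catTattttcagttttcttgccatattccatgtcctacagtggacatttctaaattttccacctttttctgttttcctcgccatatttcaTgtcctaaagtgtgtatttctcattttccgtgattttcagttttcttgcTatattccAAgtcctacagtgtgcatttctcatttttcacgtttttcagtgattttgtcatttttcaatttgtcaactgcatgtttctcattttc
array unit C: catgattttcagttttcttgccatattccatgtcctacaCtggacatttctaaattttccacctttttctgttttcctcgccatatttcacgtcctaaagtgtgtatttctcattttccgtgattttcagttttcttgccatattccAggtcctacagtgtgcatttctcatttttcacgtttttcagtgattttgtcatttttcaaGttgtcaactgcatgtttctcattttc
Unit B differed from unit A at 5 bases (97.9% identity) and unit C at 3 (98.7%), and their GC contents were 35.0%, 33.3% and 35.5%. The next stretch, chr14:3230551-3230625, stands for the duplicated start of chromosome 14, and is 75 bases long, the length of a read, with no base singled out.
chromosome 14 word: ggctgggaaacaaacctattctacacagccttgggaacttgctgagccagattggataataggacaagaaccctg
It occurred 79 times within the 5 Mb of chromosome 14 and 82 times in the whole reference. The last pair comes from the 1 Mb bins at chr9:5500001-5500075 and chr19:5511051-5511125, whose read depth moved in opposite directions, and capitals mark G and C.
chromosome 9 stretch: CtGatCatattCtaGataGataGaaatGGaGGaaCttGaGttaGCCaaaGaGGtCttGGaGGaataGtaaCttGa
chromosome 19 stretch: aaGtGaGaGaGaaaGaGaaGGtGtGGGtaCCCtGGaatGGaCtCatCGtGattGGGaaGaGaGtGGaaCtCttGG
The GC contents of these stretches were 37.3% and 49.3%.

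The centromere-proximal windows were covered nearly as deeply as the rest of their chromosomes, but far less evenly. Of the 7000 windows 6939 had at least 5000 known bases, as had 158186 of the others, and levels are the mean CPM over the 10 libraries divided by that of the median window (4.26 CPM). The median level was 0.954 in the centromere-proximal windows and 1.002 in the rest, whereas the 5th percentile was 0.028 against 0.411. Of the centromere-proximal windows 1071 (15.4%) lay below 0.5 of the median window, compared with 6.98% of the rest. Without chromosome 14 the medians were 0.978 and 1.006, and the shares below 0.5 were 9.36% and 6.78%.

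**Figure D1:**
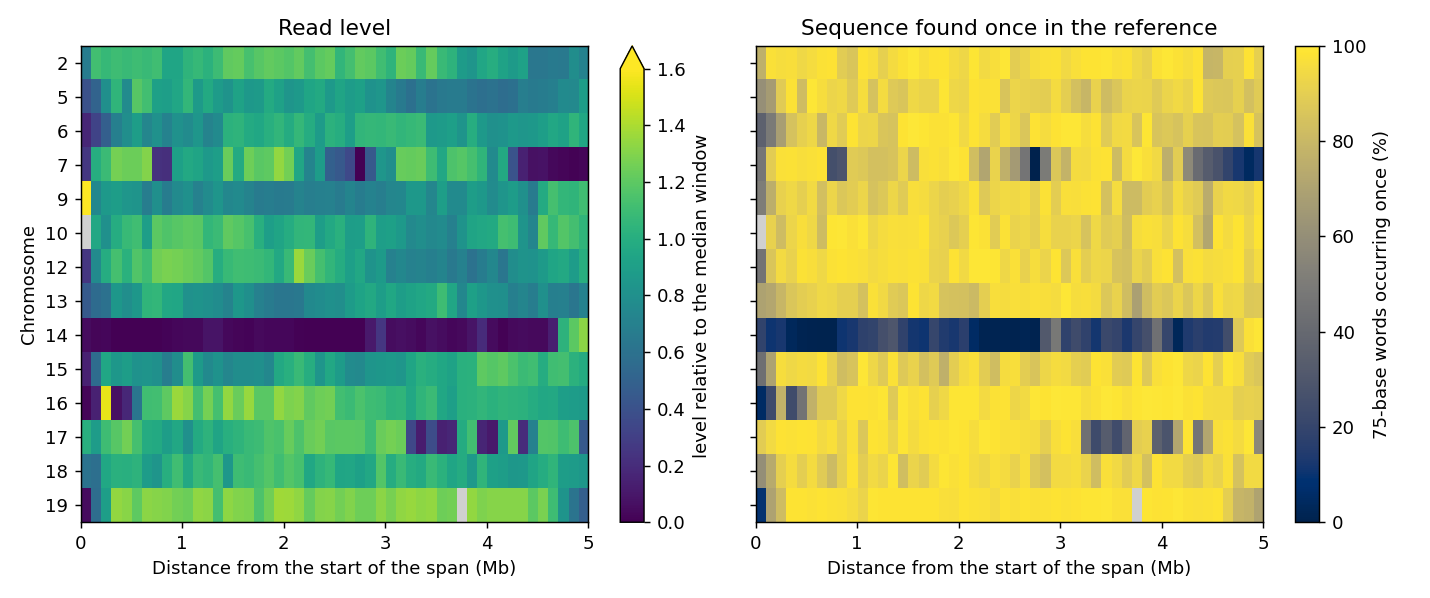
Mean level over the 10 libraries (left, CPM relative to the median window) and percent of 75-base stretches found once in the reference (right) of each 100 kb bin of the 14 spans, by distance in Mb from the start of the span, with bins without known bases in grey. Chromosome 14 is low over nearly its whole span (median level 0.0249), and shorter low blocks lie on chromosomes 7 and 17.

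The median GC content was 41.6% in centromere-proximal windows and 41.5% in the rest, although it differed between the spans (below). Copy number in the reference was compared next. A stretch of 75 bases was taken every 50 bases, and 84.7% of those in centromere-proximal windows occurred once in the reference, against 92.6% in the rest. Repeat-masked bases made up 38.7% and 33.1%. Windows in which at least 95% of stretches occurred once made up 63.0% of the centromere-proximal windows and 76.2% of the rest, and their median levels were 1.073 and 1.085. Windows in which under 25% occurred once made up 7.78% of the centromere-proximal windows (540 of 6939) and numbered 2380 of the 158186 others, and their median levels were 0.0197 and 0.0136. Between these classes the medians were 0.227 and 0.305 at 25% to 50%, 0.522 and 0.513 at 50% to 75%, and 0.827 and 0.784 at 75% to 95%. Within a class of like uniqueness the medians of the centromere-proximal windows and the rest were close, apart from the classes under 50%. Over 697 bins of 100 kb the level and the share of single-copy stretches had a Pearson correlation of 0.873 and a Spearman correlation of 0.765, or 0.773 and 0.709 over the 647 bins outside chromosome 14, as a description, since the bins share libraries and neighbours share sequence.

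The level did not fall steadily toward the centromere. Median levels were 0.928 in the first Mb, 1.022 from 1 to 2 Mb, 0.994 from 2 to 3 Mb, 0.923 from 3 to 4 Mb and 0.896 from 4 to 5 Mb. The first Mb had the fewest single-copy stretches (79.4%) and held 293 of the windows below 0.5 of the median window.

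Chromosome 14 stood apart from the other 13 chromosomes. Its 500 windows had a median level of 0.0249, against 0.953 in the rest of chromosome 14, and 468 of them (93.6%) lay below 0.5 of the median window. All 10 libraries shared this, with 5924 to 8344 reads over the 5 Mb. By 1 Mb bin its levels were 0.0164, 0.0448, 0.0443, 0.0710 and 0.418 of the median bin in order of distance from the centromere. The last bin rose within 100 kb, from 0.132 in the 100 kb bin starting at 7600001 to 1.037 in the next, where the share of single-copy stretches went from 24.2% to 87.8%. Only 19.5% of its stretches occurred once. Of 99999 stretches sampled on the span 80.5% had another copy in the reference and 79.1% had one inside the same 5 Mb, with a median of 6 copies. The stretch printed above is 1 of them. The annotation places 103 protein-coding genes there, of which 98 carry provisional Gm-numbered names.

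Some of the shorter low blocks lay in clustered gene families. On chromosome 7 the bin from 7000001 to 8000000 had a level of 0.270 of the median bin with 37.2% single-copy stretches, and 8 of its 16 protein-coding genes belong to the Vmn2r family of vomeronasal pheromone receptors. The bin from 5000001 to 6000000 of the same chromosome had a level of 0.683 and 67.0% single-copy stretches, and 10 of its 25 genes belong to the related Vmn1r family. On chromosome 17 the bin from 6000001 to 7000000 had a level of 0.634 and 57.4% single-copy stretches, and 4 of its 15 genes are copies of Dynlt1, which encodes a dynein light chain. Other bins also lay below 0.75 of the median bin, and gene families were not counted in them. They were the first bins of chromosome 6 (0.677, 80.6% single-copy stretches) and chromosome 16 (0.734, 62.4%), both bins of chromosome 5 from 6000001 to 8000000 (0.687, 87.9% and 0.736, 90.2%), the bin of chromosome 12 from 6000001 to 7000000 (0.738, 90.9%) and the caspase-gene bin of chromosome 9 from 5000001 to 6000000 (0.741, 93.5%). Windows below 0.5 of the median window numbered 154 of 494 on chromosome 7 and 94 of 495 on chromosome 17, counting windows with enough known bases.

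A share of 2.32% to 2.69% of centromere-proximal windows had no read in a given library, compared with 0.544% to 0.590% of the rest. In all 10 libraries together 146 centromere-proximal windows had none, of which 93 had known bases, 71 of them on chromosome 14. The 3 longest runs without a read were 12 windows on chromosome 19 from 6690001 to 6810000, the first 10 windows of chromosome 10 and 7 windows on chromosome 7 from 5730001 to 5800000. The runs on chromosomes 19 and 10 held 0 known bases. The run on chromosome 7 held 70000 known bases, of whose stretches 0.071% occurred once. With 317122360 reads over all libraries, an upper limit of 3 reads for the whole run allows a level of up to 0.0317% of the median window there.

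The letters of the CENP-B box were as rare in these windows as in the rest of their chromosomes. The letters NTTCGNNNNANNCGGGN, searched on both strands, were found in 16 of 6939 centromere-proximal windows (0.231%) and in 367 of 158186 others (0.232%). The shares were nearly equal. A match is a description of the letters, not a bound site.

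A tandem repeat with a period of 234 bases, the only period searched in all windows, was found in 1 place, the first 40 kb of chromosome 9. In the 4 windows of these 40 kb each base equalled the base 234 positions further on in 66.4%, 67.2%, 76.5% and 66.1% of cases. The highest value in any other centromere-proximal window was 36.0%, the highest in the rest of the 14 chromosomes was 42.9%, and the median was 26.2% in both. A repeat of this period and low GC content (35.5% over the 40 kb) is what the mouse major satellite is known for, although no repeat annotation was used here to name it. The levels of the 4 windows were 4.54, 1.16, 7.17 and 1.97 times the median window, although only 25%, 11%, 26% and 31% of their stretches occurred once. The first and the third of them, which start at the first known base and at 3020001, were the only 2 of the 6939 centromere-proximal windows above 3 times the median window. Reads of the satellite arrays of any chromosome may be placed on this 40 kb copy, and their chromosome of origin cannot be told apart.

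The satellite copy drew 51.5 and 44.0 CPM in replicates 1 and 2 at p0. It drew 83.8 and 71.5 CPM at p10 and 71.8 and 76.0 CPM at p20 in Mulas2019 conditions. In Keniry2022 conditions it drew 63.7 and 67.9 CPM at p10, and 58.5 and 44.5 CPM at p20 in the libraries labelled replicates 1 and 2. Both p0 libraries lay below both libraries of each Mulas2019 passage and of p10 Keniry2022, and between the p20 Keniry2022 libraries and p0 the ranges overlapped. Group means were 47.7 ± 5.30 (SD, n = 2) at p0, 77.6 ± 8.68 at p10 Mulas2019, 73.9 ± 3.02 at p20 Mulas2019, 65.8 ± 3.04 at p10 Keniry2022 and 51.5 ± 9.84 at p20 Keniry2022, or 1.63, 1.55, 1.38 and 1.08 times p0 in the 4 later groups. No test was run on this sum, and its windows were tested in the fit across all windows.

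**Figure D2:**
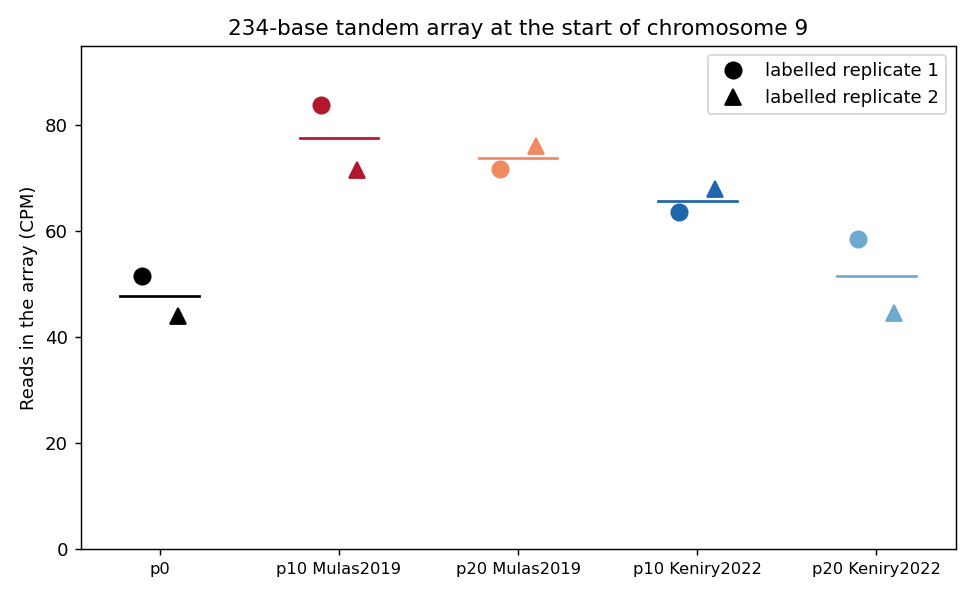
CPM of the tandem repeat in the first 40 kb of chromosome 9, one point per library and a bar at the mean of each group. The p0 libraries lie at 51.5 and 44.0 CPM, and the p10 Mulas2019 libraries at 83.8 and 71.5 CPM.

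Across all 10 kb windows that pass the low-count filter the satellite windows could be tested one by one. With limma's TREAT, which asks for a change of more than 1.1-fold, 667 of the 6362 centromere-proximal windows tested passed at p10 Mulas2019 against p0 (425 higher, 242 lower), beside 15.6% of all windows tested. With the GC correction described below 0 of the 6362 passed with limma (267 at an unadjusted p under 0.05), beside 0.00199% of all windows. At p20 Mulas2019 2 passed, both higher, beside 0.0223%. These 2 were the first and the third satellite window, and refits of the 10 kb windows without single libraries were not made. The third window had 24.5 and 21.1 CPM at p0, 41.4 and 34.0 at p10 Mulas2019, 35.1 and 36.0 at p20 Mulas2019, 32.0 and 32.9 at p10 Keniry2022, and 27.5 and 21.5 in the libraries labelled p20 Keniry2022. Its log2FC against p0 was 0.72 at p10 Mulas2019 (SE 0.084, limma adjusted p 1.67e-06) and 0.64 at p20 Mulas2019 (limma adjusted p 0.000812). At p10 Keniry2022 the log2FC was 0.51 (limma adjusted p 0.168), and at p20 Keniry2022 it was 0.09. The first window had 0.67 (limma adjusted p 4.15e-05) and 0.65 (limma adjusted p 0.00435) in Mulas2019 conditions, and 0.45 and 0.07 in Keniry2022 conditions. Directly compared at p20, Keniry2022 minus Mulas2019 was -0.55 and -0.58 in these windows, which did not pass (limma adjusted p 0.193 for both).

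Base composition moved with this result. A loess curve of level on GC content was subtracted from each library. The p10 Mulas2019 values of the first and the third satellite window were then 0.07 and 0.12, and the p20 values 0.39 and 0.38. The second and the fourth window had 0.67 (limma adjusted p 0.00327) and 0.71 (limma adjusted p 0.000122) at p10 Mulas2019. After the correction they had 0.08 and 0.35 at p10 Mulas2019, and 0.46 and 0.35 at p20. Both p20 Mulas2019 calls were lost with this correction, which left 0 of the 6362 windows called with limma (107 at an unadjusted p under 0.05), beside 0.0% of all windows. At 100 kb the first bin of chromosome 9, of which the satellite copy holds 72.9% to 85.7% of the reads, had a log2FC of 0.53 at p10 Mulas2019 (SE 0.065) and 0.65 after the same correction (limma adjusted p 0.00228). It was the only centromere-proximal 100 kb bin called after the correction in that comparison, beside 0.0595% of all bins. The bin mixes satellite at 35.5% GC with 60 kb at 46.8% GC, and was corrected at its overall GC content of 42.3%. The part of this mixture in the gap between the corrected values at 10 kb and 100 kb was not tested. At p20 Mulas2019 the bin had 0.48 (limma adjusted p 0.00102), and 0.53 after the correction (limma adjusted p 0.111). After the correction 0 centromere-proximal 100 kb bins were called in the other 5 comparisons with limma (0 to 3 bins each at an unadjusted p under 0.05), beside at most 0.0119% of all bins.

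The other 3 of the 5 windows with the highest levels lay outside this repeat. The first window of chromosome 18 had a level of 2.59 (GC content 39.2%, 92.5% single-copy stretches). Its p10 Mulas2019 value was -0.26 (limma adjusted p 0.260), and -0.45 after the GC correction (limma adjusted p 0.653). On chromosome 16 the windows starting at 3260001 and 3240001 had levels of 2.26 and 2.09 with 99.5% and 93.0% single-copy stretches and GC contents of 35.7% and 36.0%. Both rose at p10 Mulas2019, by 0.46 (limma adjusted p 0.0150) and 0.45 (limma adjusted p 0.0162) on the log2 scale, and had -0.08 and -0.05 after the GC correction.

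Library by library, the median centromere-proximal window lay below the median of the rest. The difference on the log2 CPM scale was -0.105 and -0.103 at p0, -0.025 and -0.039 at p10 Mulas2019 and -0.059 and -0.061 at p20 Mulas2019. It was -0.078 and -0.053 at p10 Keniry2022, and -0.076 and -0.085 in the libraries labelled p20 Keniry2022. The difference was widest at p0 and narrowest at p10 Mulas2019, and these groups lay apart from all others, whereas the other 3 overlapped in part. The mean over the 10 libraries was -0.068, with a pooled SD of 0.0094 between libraries of a group. It was -0.131 as a ratio of mean CPM, -0.032 after the GC correction described below, -0.037 without chromosome 14 and -0.0053 when chromosomes were weighted equally. From p0 to p10 Mulas2019 it changed by 0.072 ± 0.011 (SD, n = 2 lines). This change was 0.015 after the GC correction, and 0.0059 as a ratio of mean CPM, with opposite signs in the lines. The centromere-proximal windows took 3.83% to 3.87% of each library's reads on the 14 chromosomes, beside 4.20% of the known bases of these chromosomes.

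Taken by chromosome, the spans differed among themselves far more than their common median shows, and those farthest from their chromosomes, chromosome 14 aside, were AT-rich where low and GC-rich where high. The median log2 CPM of the span minus that of the rest of the chromosome, averaged over the p0 libraries, was -0.66 on chromosome 9 (GC content 39.2%), -0.47 on chromosome 5 (39.8%) and -0.43 on chromosome 13 (39.7%). It was 0.35 on chromosome 16 (43.5%) and 0.36 on chromosome 19 (47.7%), the most GC-rich span. At p10 Mulas2019 the same spans had -0.17, -0.13, -0.14, 0.09 and 0.12, so that every one of them lay nearer to its chromosome. On chromosome 9 the libraries had -0.665 and -0.653 at p0, -0.178 and -0.158 at p10 Mulas2019, -0.426 and -0.398 at p20 Mulas2019, -0.471 and -0.413 at p10 Keniry2022, and -0.554 and -0.555 in the libraries labelled p20 Keniry2022. The p20 Mulas2019 and p10 Keniry2022 ranges overlapped, and the other groups lay apart from them and from each other. After the GC correction the chromosome 9 values were -0.12 at p0 and -0.03 at p10 Mulas2019, and those of chromosome 19 were 0.04 and 0.04.

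The remaining spans lay closer to their chromosomes, with 0.15 on chromosome 2 (GC content 42.6%), 0.13 on chromosome 10 (42.0%) and on chromosome 17 (44.6%), although the latter is the most GC-rich span after that of chromosome 19, 0.04 on chromosome 18, -0.06 on chromosome 6, -0.12 on chromosome 15 and a value within 0.001 of 0 on chromosome 12 at p0. Chromosome 7 (43.0%) had -0.18 at p0 and -0.14 at p10 Mulas2019, and -0.16 at both after the GC correction. Chromosome 14 (42.6%), described above, had -5.10 and -5.44.

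**Figure D3:**
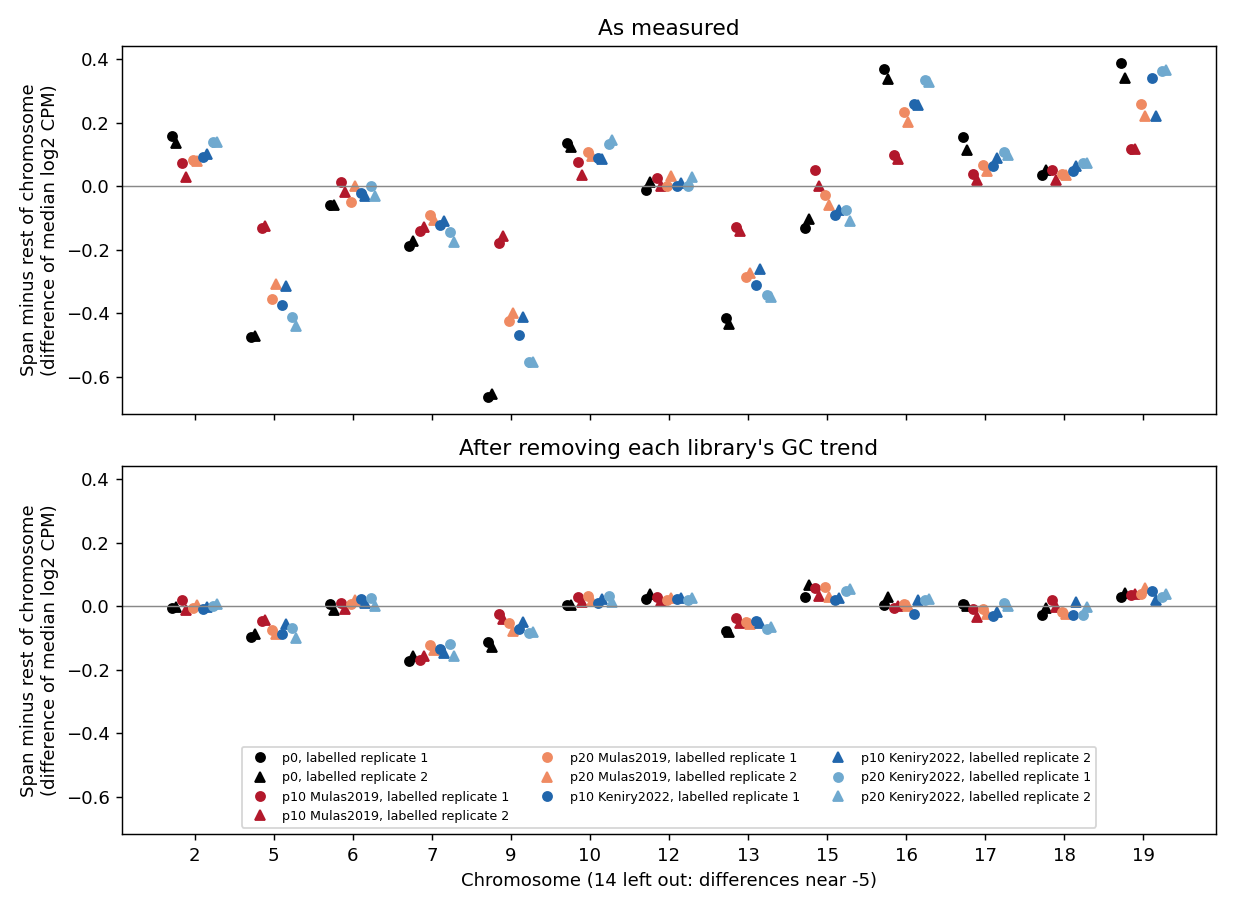
Median log2 CPM of the centromere-proximal span minus that of the rest of the same chromosome, one point per library (colours for groups, shapes for labelled replicates, chromosome 14 left out), as measured above and with the GC trend of each library removed below. As measured, the p0 libraries of chromosomes 5, 9 and 13 lie lowest and those of chromosomes 16 and 19 highest or near it, and the p10 Mulas2019 libraries of these 5 chromosomes lie nearest to 0.

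The dependence on GC content was measured over the 302 centromere-proximal 100 kb bins made of nearly single-copy sequence. A bin 1 percentage point richer in GC had a log2 CPM higher by 0.0779 and 0.0733 at p0, 0.0180 and 0.0175 at p10 Mulas2019, and 0.0506 and 0.0456 at p20 Mulas2019. The slopes were 0.0609 and 0.0478 at p10 Keniry2022, and 0.0703 and 0.0666 in the libraries labelled p20 Keniry2022. The p0 slopes were the steepest and the p10 Mulas2019 slopes the shallowest, and the ranges of those groups did not overlap with any other. Over 8898 such bins in the rest of the 14 chromosomes the slopes were 0.0901 and 0.0860 at p0, and 0.0241 and 0.0212 at p10 Mulas2019. GC content and read depth were thus related inside and outside the spans, and more steeply at p0 than at p10 Mulas2019 in both. The part of this relation in the changes given next was not tested beyond the GC correction printed beside them.

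The study compared the cultures in 1 Mb bins to ask how their genomes changed with passage. Of the 70 centromere-proximal bins 66 passed the filter on low counts, and the other 4 were the first 4 of chromosome 14. At p10 Mulas2019 against p0, 29 of the 66 bins (43.9%) passed limma's TREAT at an adjusted p of 0.05, with 15 higher and 14 lower, beside 58.8% of all bins (33.1% higher and 25.7% lower). The share was thus below that of the genome. The median log2FC was -0.006, beside 0.008 over all bins. In 61 of the 66 bins both lines had a change of the same sign. The higher bins had a GC content of 37.7% to 39.8% and the lower bins of 43.3% to 50.8%.

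Chromosome 9 gave the largest gains. The bin from 5000001 to 6000000, which holds the inflammatory caspase genes Casp1, Casp4 and Casp12, had 254.3 and 256.2 CPM at p0, 359.0 and 366.7 at p10 Mulas2019, 294.2 and 298.6 at p20 Mulas2019, 284.3 and 302.0 at p10 Keniry2022, and 266.5 and 270.2 in the libraries labelled p20 Keniry2022. All later libraries lay above both p0 libraries, and the p10 Mulas2019 libraries lay above every other. The log2FC at p10 Mulas2019 was 0.51 (SE 0.024, limma adjusted p 1.00e-07). Replicates 1 and 2 had 0.50 and 0.52. The bin from 4000001 to 5000000 holds Aasdhppt, Kbtbd3, Msantd4 and the AMPA receptor subunit gene Gria4. It had 267.4 CPM in both p0 libraries, 374.8 and 383.1 at p10 Mulas2019, 316.9 and 317.5 at p20 Mulas2019, 305.3 and 316.7 at p10 Keniry2022, and 287.4 and 291.3 in the libraries labelled p20 Keniry2022, in the same order of groups. The log2FC at p10 Mulas2019 was 0.50 (SE 0.020, limma adjusted p 7.20e-08).

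Chromosome 19 gave the largest losses. The bin from 6000001 to 7000000, with 47 protein-coding genes, had 541.8 and 528.9 CPM at p0 and 407.2 and 413.2 at p10 Mulas2019, with 460.8 to 523.4 in the other 6 libraries. Its log2FC was -0.38 (SE 0.034, limma adjusted p 2.34e-05). The neighbouring bin from 5000001 to 6000000, with 54 genes, had 607.0 and 597.7 CPM at p0 and 474.6 and 460.9 at p10 Mulas2019, with 525.5 to 600.4 in the others. Its log2FC was -0.37 (SE 0.027, limma adjusted p 7.15e-06). In both bins the p10 Mulas2019 libraries lay below all others.

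By chromosome, the higher bins numbered 4 on chromosome 9, 3 on chromosome 13, 2 each on chromosomes 5 and 15, and 1 each on chromosomes 2, 6, 10 and 12. The lower bins numbered 4 on chromosome 19, 3 on chromosome 17, 2 each on chromosomes 2, 7 and 16, and 1 on chromosome 14. Chromosome 18 had none. GC content and log2FC had a Pearson correlation of -0.93 over the 66 bins, as a description. After the GC correction the log2FC of the 4 named bins was 0.11, 0.15, 0.05 and 0.04 in the order given, the range over the 66 bins was -0.13 to 0.21, and 0 of the 66 were called with limma (1 at an unadjusted p under 0.05), beside 0.118% of all bins. The lowest corrected value was that of chromosome 7 from 7000001 to 8000000 and the highest that of the first bin of chromosome 9.

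**Figure D4:**
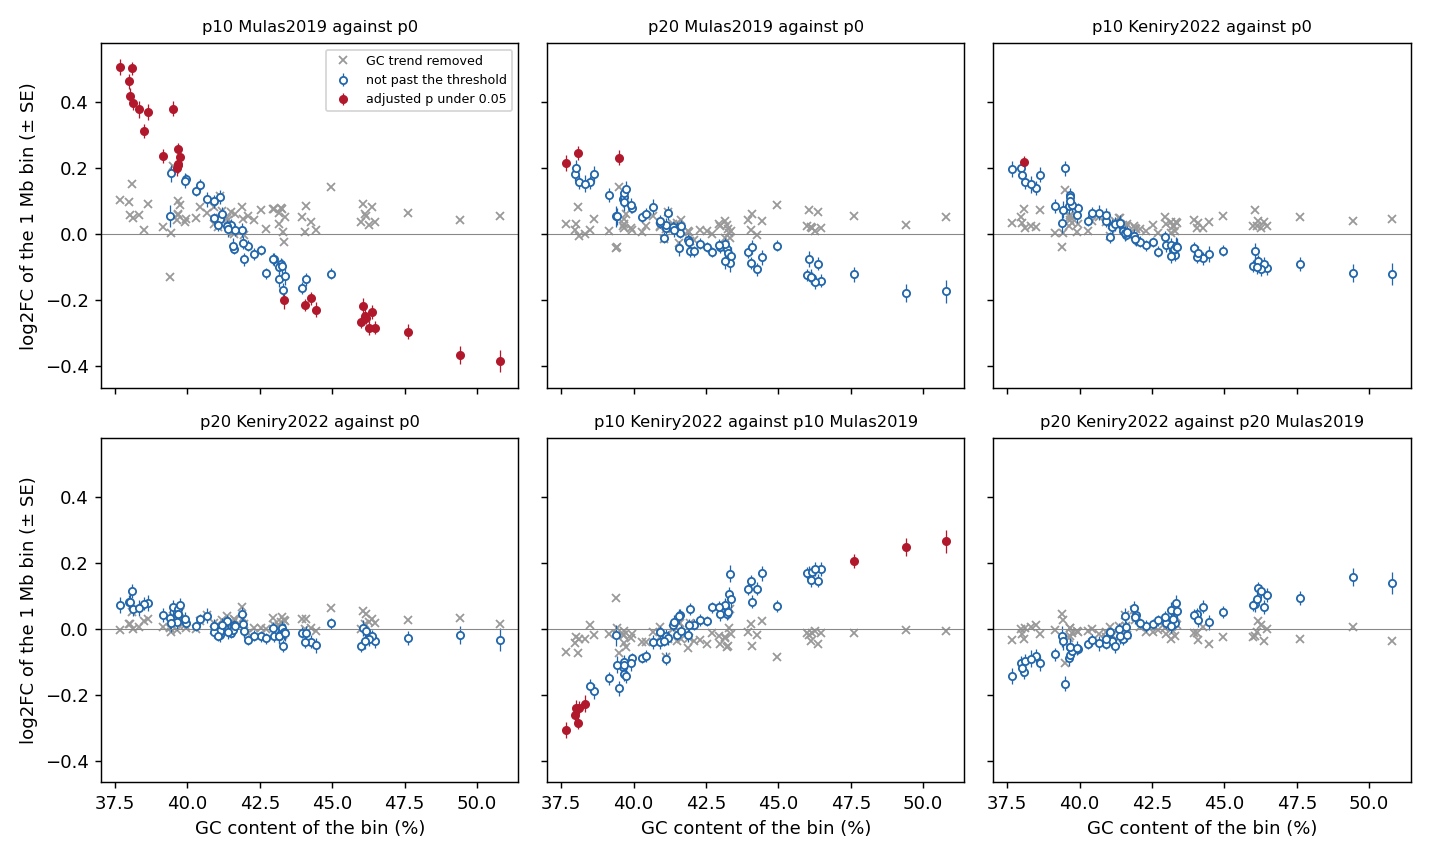
log2FC (± SE) of the 66 centromere-proximal 1 Mb bins against their GC content (%) in the 6 comparisons, with filled red points at a limma adjusted p under 0.05, open blue points for the other bins and grey crosses after the GC trend was removed. At p10 Mulas2019 against p0 the bins fall from above 0 at low GC content to below 0 at high GC content, and the pattern is turned over in Keniry2022 against Mulas2019.

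At p20 Mulas2019 against p0, 3 of the 66 bins (4.55%) passed, all higher, beside 8.89% of all bins. These were the first 3 bins of chromosome 9. The bin from 4000001 to 5000000 had a log2FC of 0.25 (limma adjusted p 0.0115) and the first bin had 0.23 (limma adjusted p 0.0178). Without the satellite copy the latter value was 0.15, and at p10 Mulas2019 it was 0.38 with the copy and 0.32 without it. After the GC correction the named bins had 0.08 and 0.14. With the p20 Keniry2022 pairing crossed 2 of the 66 bins passed (3.03%, beside 8.15% of all bins). Voom, no replicate block and autosomal median centring also gave 2 bins each, beside 7.12%, 4.76% and 4.49% of all bins. The count was 0 without either p0 library, as it was over all 2541 bins, and 1 bin (1.52%, beside 1.53% of all bins) without p20 Mulas2019 replicate 2.

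At p10 Keniry2022 against p0, 1 of the 66 bins (1.52%) passed, beside 4.21% of all bins. It was again the bin of chromosome 9 from 4000001 to 5000000, with a log2FC of 0.22 (limma adjusted p 0.0395) and 0.08 after the GC correction. The call was lost with voom on the recovered reads, when the replicate block was left out, with the p20 Keniry2022 pairing crossed, without the low-count filter and with autosomal median centring. Over all bins 4 calls were left with voom and 0 under each of the others. With each chromosome centred on its own median 4 of the 66 bins passed (6.06%, beside 5.27% of all bins). Leaving out p0 replicate 1, p0 replicate 2 or p10 Keniry2022 replicate 2 also ended it, with 0 calls over all bins each time, and 3 bins (4.55%, beside 8.34% of all bins) passed when p10 Keniry2022 replicate 1 was left out. At p20 Keniry2022 against p0, 0 of the 66 bins passed with limma, beside 0.0% of all bins, and no unadjusted p was under 0.05 (0 bins). Voom gave 0 calls, and 0 bins at that unadjusted threshold. The values farthest from 0 were 0.11 on chromosome 9 from 4000001 to 5000000 and -0.05 on chromosome 10 from 4000001 to 5000000. Without a minimum change 7.58% passed, beside 17.4% of all bins. With the pairing of the p20 Keniry2022 libraries crossed, and without either of them, the count stayed at 0.

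The protocols were then compared directly. At p10, 9 of the 66 bins (13.6%) differed between Keniry2022 and Mulas2019, with 3 higher and 6 lower in Keniry2022, beside 29.3% of all bins (8.03% higher and 21.3% lower). The 3 higher bins all lay on chromosome 19 and had a GC content of 47.6% to 50.8%, with 0.26 from 6000001 to 7000000 (limma adjusted p 0.00785) and 0.25 from 5000001 to 6000000 (limma adjusted p 0.00504). The 6 lower bins lay on chromosomes 5, 9, 12 and 13 and had a GC content of 37.7% to 38.3%. The lowest were the caspase bin of chromosome 9 with -0.31 (limma adjusted p 0.000304) and its neighbour from 4000001 to 5000000 with -0.28 (limma adjusted p 0.000258). GC content and log2FC had a Pearson correlation of 0.94 over the 66 bins, the reverse of that of Mulas2019 against p0, and both comparisons use the p10 Mulas2019 libraries. Leaving out p10 Keniry2022 replicate 1 gave 4 bins (6.06%, beside 14.4% of all bins), and leaving out replicate 2 of that group gave 15 (22.7%, beside 35.4%). After the GC correction 0 of the 66 bins passed with limma (0 at an unadjusted p under 0.05), beside 0.0394% of all bins. The named bins of chromosome 19 then had -0.0068 and -0.0047, and those of chromosome 9 had -0.07 and -0.07.

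At p20, 0 of the 66 bins passed between the protocols, beside 0.0% of all bins. Crossing the p20 Keniry2022 pairing, or dropping either p20 Keniry2022 library, also gave 0 (0 at an unadjusted p under 0.05 in each). Neither limma nor voom had a bin at an unadjusted p under 0.05 (0 bins each). The values farthest from 0 lay on the same chromosomes, with 0.16 on chromosome 19 from 5000001 to 6000000 and -0.17 in the first bin of chromosome 9. Without a minimum change 54.5% passed, beside 63.7% of all bins.

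The groups matched for days in culture, p20 Keniry2022 and p10 Mulas2019, were compared in a test added after the data were seen. Of the 66 bins 21 (31.8%) passed, with 10 higher and 11 lower in p20 Keniry2022, beside 49.3% of all bins (19.6% higher and 29.7% lower). The lower bins were again AT-rich, led by the caspase bin of chromosome 9 with -0.44 (SE 0.024, limma adjusted p 1.52e-06). The higher bins were GC-rich, led by chromosome 19 from 6000001 to 7000000 with 0.35 (SE 0.034, limma adjusted p 0.000107). The count was 21 with the p20 Keniry2022 pairing crossed, 22 and 18 when p20 Keniry2022 lost its library labelled replicate 1 or 2, and 20 and 21 when p10 Mulas2019 lost replicate 1 or 2, beside 45.0% to 49.7% of all bins in these fits. Once the GC trend was removed 0 of the 66 passed with limma (0 at an unadjusted p under 0.05), beside 0.0787% of all bins, and the named bins had -0.11 and -0.04.

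Without a minimum change 84.8%, 68.2% and 62.1% of the 66 bins passed for p10 Mulas2019, p20 Mulas2019 and p10 Keniry2022 against p0, beside 89.3%, 80.6% and 73.4% of all bins, and 72.7% beside 81.7% between the protocols at p10. Other bin sizes were then used. Of the 14 whole 5 Mb spans 5 passed at p10 Mulas2019 against p0, beside 52.4% of all segments of that size. At p10 between the protocols 0 of the 14 passed with limma (2 at an unadjusted p under 0.05), beside 20.5%. In the former comparison the spans of chromosomes 5, 9 and 13 were higher by 0.19, 0.33 and 0.21, and those of chromosomes 17 and 19 fell by 0.16 and 0.29. With the GC trend removed 0 of the 14 passed with limma (0 at an unadjusted p under 0.05), beside 0.0% of all segments, and chromosomes 17 and 19 had 0.05 and 0.05. Of 643 bins of 100 kb 142 were higher and 119 lower, beside 53.8% of all bins, and 27 and 33 were higher and lower at p10 in Keniry2022 against Mulas2019, beside 17.0%. Of the 6362 windows of 10 kb, 1 was higher between the protocols at p10, beside 0.0243% of all windows, and 0 with limma after the GC correction (98 at an unadjusted p under 0.05), beside 0.000798%. At p20 Mulas2019 and p10 Keniry2022 against p0, 5 and 2 of the 643 were higher, beside 3.75% and 0.258%.

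Named genes were followed through the 100 kb bin that holds their start. Lists of imprinted genes, of regulators of pluripotency signalling and chromatin, of growth and survival genes and of nuclear long non-coding RNAs held 33 genes that overlap a span, of which 32 start inside it, in 28 bins. A value is the DNA read depth of the bin and carries no information on expression. Genes in the same bin share its value and are counted separately, whereas the shares beside them count each bin once. At p10 Mulas2019 against p0, 7 of the 32 genes lay in a called bin (1 higher and 6 lower), beside 53.8% of all bins, and their median log2FC was -0.14, beside 0.028 over all bins. After the GC correction the range over the genes was -0.11 to 0.16, and 0 lay in a called bin, beside 0.0595% of all bins.

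Among regulators of pluripotency signalling and chromatin, 3 of 12 lay in a lower bin at p10 Mulas2019 and 0 in a higher one, beside 21.9% of all bins lower and 31.8% higher. Dnmt3a, which encodes a de novo DNA methyltransferase, had 61.1 and 62.7 CPM at p0, 44.6 and 46.0 at p10 Mulas2019, 53.4 and 49.5 at p20 Mulas2019, 55.9 and 52.5 at p10 Keniry2022, and 61.0 and 58.7 in the libraries labelled p20 Keniry2022. The p10 Mulas2019 libraries lay below all others and the p0 libraries above all others. The log2FC was -0.45 (limma adjusted p 4.86e-07). Men1, the gene of the MLL complex subunit menin, had -0.44 (limma adjusted p 1.79e-06), and Esrra, which encodes a nuclear receptor related to the oestrogen receptor, had -0.32 (limma adjusted p 0.00186). Lifr, which encodes the receptor of the cytokine LIF in the medium, had -0.17 and was not called (limma adjusted p 0.407). The values of Dnmt3a, Men1 and Esrra were 0.0046, 0.02 and 0.16 once GC content was corrected for.

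Both long non-coding RNA genes, Malat1 and Neat1, share 1 bin on chromosome 19. It had 59.1 and 58.0 CPM at p0, 42.7 and 41.7 at p10 Mulas2019, 54.2 and 51.0 at p20 Mulas2019, 58.2 and 51.0 at p10 Keniry2022, and 58.6 and 57.1 in the libraries labelled p20 Keniry2022. The p10 Mulas2019 libraries again lay below all others, with a log2FC of -0.47 (SE 0.049, limma adjusted p 5.60e-07). Of the 9 growth and survival genes that start inside a span, 1 lay in a lower bin and 0 in a higher one, beside 21.9% and 31.8% of all bins. It was Rela, the gene of an NF-kB subunit (-0.39, limma adjusted p 6.52e-06). After the GC correction the bin of Malat1 and Neat1 had -0.03 and that of Rela had 0.07.

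Of 9 imprinted genes 1 lay in a called bin, a higher one, beside 53.8% of all bins called. Calcr, which encodes the calcitonin receptor and lies in the imprinted cluster of chromosome 6, had 30.0 and 31.4 CPM at p0, 39.5 and 39.3 at p10 Mulas2019, 35.8 and 35.0 at p20 Mulas2019, 33.2 and 34.8 at p10 Keniry2022, and 31.4 and 34.2 in the libraries labelled p20 Keniry2022. Both p10 Mulas2019 libraries lay above all others, and the log2FC was 0.36 (SE 0.051, limma adjusted p 0.000182) in a bin with a GC content of 38.1%. After the GC correction it was 0.02. Peg10 and Sgce of the same cluster had 0.08, and Peg3 and Usp29, imprinted neighbours on chromosome 7, had -0.14 (limma adjusted p 0.691). At p20 Mulas2019, p10 Keniry2022 and p20 Keniry2022 against p0, 0 of the 32 genes lay in a called bin, beside 3.75%, 0.258% and 0.0% of all bins.

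**Figure D5:**
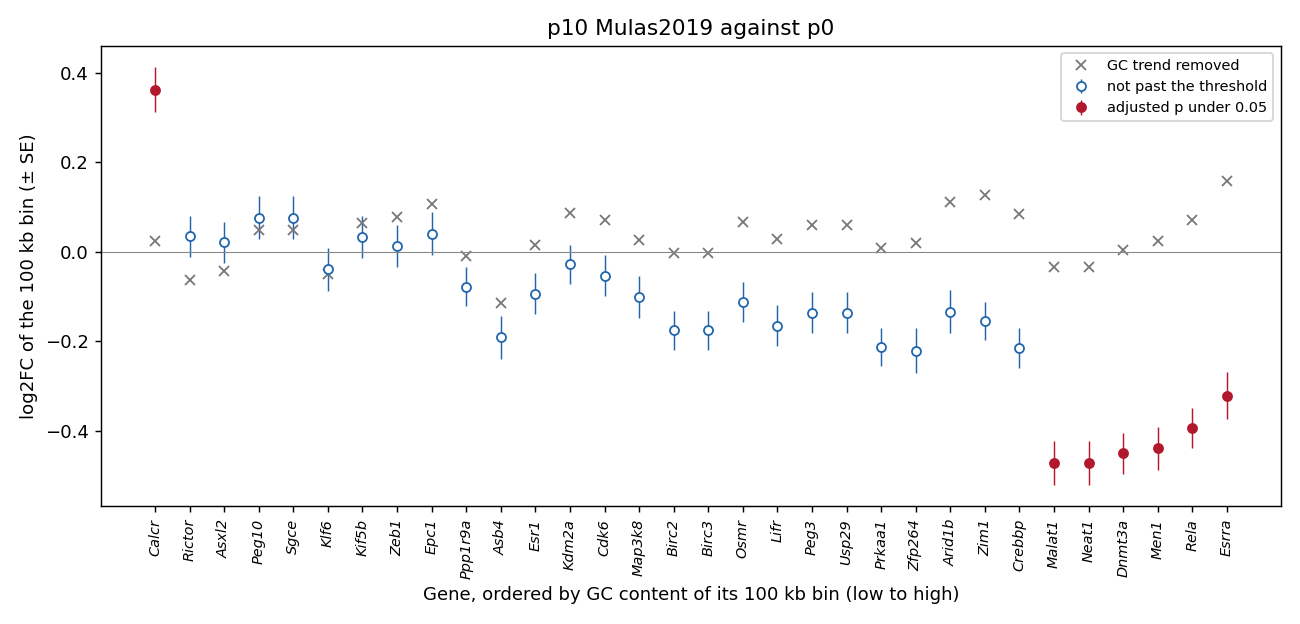
log2FC (± SE) at p10 Mulas2019 against p0 of the 100 kb bin that holds the start of each of the 32 genes, ordered by the GC content of the bin, with filled red points at a limma adjusted p under 0.05, open blue points for the others and grey crosses after the GC trend was removed. The bins of Dnmt3a, Men1, Rela, Malat1 and Neat1 lie lowest at p10 Mulas2019 (-0.47 to -0.39), and that of Calcr highest (0.36).

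At p10, Keniry2022 against Mulas2019, 5 of the 32 genes lay in a higher bin and 0 in a lower one, beside 17.0% of all bins (4.36% higher and 12.6% lower). Malat1 and Neat1 are among the 5 and share a bin. Malat1 and Neat1 had 0.37 (limma adjusted p 0.00193), Men1 had 0.36 (limma adjusted p 0.00202), Rela had 0.27 (limma adjusted p 0.0217) and Dnmt3a had 0.26 (limma adjusted p 0.0420). Removing the GC trend left 0.10, 0.08, -0.01 and -0.02 in the same order, and 0 of the 32 genes in a called bin, beside 0.0119% of all bins. At p20 the same comparison gave 0 called bins for the 32 genes, beside 0.0% of all bins.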

How the data were processed

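DNA of 10 libraries was sequenced. The submitters' processing notes name bcl2fastq, Bowtie2 and mm10, without stated versions. The authors deposited 1 table of log2 values per 10 kb window. Per window, the deposited log2 values stood for whole reads scaled by a factor of the library, with empty windows set to 0.9 reads. Whole reads were recovered for 100.0% of values (tolerance 0.1 reads), summed in bins and scaled to CPM. The sources used here do not say how reads with several equal matches were placed. Blacklisted regions were not removed. Window ends matched GRCm38 on 21 of 21 chromosomes, so sequence features were read from that genome and gene starts from its annotation.

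The study used voom on 1 Mb bins. Because the deposited unit is log2, limma 3.58.1 with a trended prior on log2 CPM (0.5 reads added, R 4.3.3, statmod 1.5.0) was used instead, and voom was an alternative. All bins of the genome with a mean CPM of at least 0.1 of the median bin entered 1 fit of the 10 libraries, with the cell line as a random block (consensus correlation 0.132), TREAT at a fold of 1.1 and Benjamini-Hochberg adjustment at 0.05. The methods print a log2 fold change of 1.1, a fold of 2.14, which was run as an alternative. The GC correction subtracted, per library, a loess curve (span 0.3) on GC content. Other steps used Python 3.11.15 with pandas 2.3.3, numpy 2.4.6, matplotlib 3.10.9 and scipy 1.17.1. The fit was tested on simulated counts of 1 Mb bins, which held no GC trend of a library and no line effect.

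Replicates are separate lines, and groups of 2 estimate their spread weakly. The numbers pair libraries because each line was split at p0. A comparison of the groups with equal days in culture was added after the data were seen. Line differences correlated by 0.016 to 0.491 between groups without p20 Keniry2022, and by -0.522 to 0.037 with it. In each comparison the 2 called 1 Mb bins with the largest positive and negative log2FC were named (1 each, as a description, where none was called), with the 5 windows of highest level, the 3 longest runs without a read and the listed genes. The members and lists were chosen with earlier results of these data known. Proportions of reads and counting errors cover counting error only.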

Additional observations from a re-analysis of the deposited data

Results flagged for a closer look

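In 9 of the 66 centromere-proximal 1 Mb bins (13.6%, beside 29.3% of all bins) the p10 change from p0 was not the same in both protocols, by the direct comparison of p10 Keniry2022 with p10 Mulas2019 in limma, which is the test of that difference. On chromosome 19 from 6000001 to 7000000 the direct difference was 0.26 (limma adjusted p 0.00785). In the caspase bin of chromosome 9 it was -0.31 (limma adjusted p 0.000304). After the GC correction 0 of the 9 passed, and these bins had -0.0068 and -0.07. Groups of 2 libraries are too small to single out a library within a group.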

How the results depend on the processing

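The mean level difference between centromere-proximal windows and the rest, and its mean change at p10 Mulas2019, kept their sign under the alternatives below. At p10 Mulas2019 against p0 single values turned after the GC correction. The chromosome 19 bins went from -0.38 and -0.37 to 0.05 and 0.04, the 5 Mb spans of chromosomes 17 and 19 and the 2 chromosome 16 windows turned as given above, and the called bins of Dnmt3a, Men1, Rela and Esrra went from -0.45, -0.44, -0.39 and -0.32 to 0.0046, 0.02, 0.07 and 0.16. Between the protocols at p10 the chromosome 19 bins went from 0.26 and 0.25 to -0.0068 and -0.0047. The share of the 66 bins called depended most on the minimum change. With no minimum it was 84.8%, 68.2%, 62.1% and 7.58% for p10 Mulas2019, p20 Mulas2019, p10 Keniry2022 and p20 Keniry2022 against p0, and 72.7% and 54.5% for Keniry2022 against Mulas2019 at p10 and p20. With a minimum log2FC of 1.1, and separately after the GC correction with the replicate block, it was 0 in all 6 comparisons. For p10 Mulas2019 against p0 it was 10.5% (15.6% of all windows) in 10 kb windows. For p20 Mulas2019 it was 2.86% (5.53% of all bins) without the low-count filter and 9.09% (8.66%) with each chromosome centred on its own median. In 100 kb bins it was 0.778% (3.75%), in 5 Mb segments 0 (0.0%) and in 10 kb windows 0.0314% (0.0223%). For p10 Keniry2022 it was 0 with voom, without the replicate block, without the filter, with autosomal centring, with the p20 Keniry2022 pairing crossed, and in 5 Mb segments and 10 kb windows. It was 6.06% (5.27% of all bins) with each chromosome centred, 0.311% (0.258%) in 100 kb bins, and 0 to 4.55% without 1 library. Between the protocols at p10 it was 31.8% when groups were matched for days in culture (added after the data were seen), 0 in 5 Mb segments, 0.0157% in 10 kb windows and 6.06% to 22.7% without 1 library. For p20 Mulas2019 and p10 Keniry2022 against p0 the share lay below that of all bins as reported. With each chromosome centred it lay slightly above, on 6 and 4 of the 66 bins. It also lay slightly above in 10 kb windows at p20 Mulas2019 (2 windows) and in 100 kb bins at p10 Keniry2022 (2 bins). These shares were near those of all bins and rest on few calls, so no difference of the spans is read from them. The cause of the differences between settings, bin size included, was not tested. Without the replicate block the p20 Mulas2019 share was 3.03%, and a fixed replicate block moved no count of the 66 bins. The fixed block moved the share of all bins from 8.89% to 12.1% at p20 Mulas2019 and from 4.21% to 7.16% at p10 Keniry2022. The level difference between centromere-proximal windows and the rest (-0.068) was -0.131 as a ratio of mean CPM, -0.032 after the GC correction, -0.024 without low windows, -0.037 without chromosome 14, -0.0053 with chromosomes weighted equally, and -0.073 to -0.064 without 1 library. Its change at p10 Mulas2019 (0.072) was 0.0059, 0.015 and 0.055 under the first 3 of these, 0.046 with equal weights, and 0.064 to 0.080 without 1 library.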
